A study of Mus musculus with 9 samples.

Results

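The genes Ces3a, Ces3b, Ces1c, Ces1d, Ces1f, Ces2a and Ces2e encode mouse carboxylesterases and were followed through AGO-bound RNA of liver with and without miR-122. Their members were all regions of the deposited table that carry 1 of these 7 gene names, 64 of 92645 regions and 7 of 13770 named genes, and each was read alone and as a sum per gene. The livers came from 9 mice aged 6 weeks: 5 floxed littermate controls, which the labels call WT, and 4 miR-122 KO mice, with 1 library per mouse. Controls 1 to 3 and KO replicate 1 were female, and controls 4 and 5 and KO replicates 2 to 4 were male. The promoter or cell type that drives the recombinase, and any allele beyond the floxed one, are not stated in these sources.

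Carboxylesterases are serine hydrolases of the endoplasmic reticulum or plasma that split esters, amides and acylglycerols, and liver is among their richest sources. Members of the Ces1 subfamily act on triacylglycerol and on drugs, and the mouse genome holds the family as tandem copies that resemble each other closely. miR-122 is the most abundant microRNA of hepatocytes. AGO CLIP-seq crosslinks the Argonaute (AGO) protein to the RNA that it holds and counts the recovered reads over bound regions, so that a microRNA's target sites appear where a region contains a run complementary to its seed, the bases near its 5′ end. The comparison asks how AGO binding on these genes differs when miR-122 is missing.

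All 64 regions lie on chromosome 8 (mm10). They were annotated by the authors as coding sequence in 40 cases, 3′ UTR in 8, 5′ UTR in 6, intron in 8 and downstream in 2. A match to the miR-122 seed was deposited for 14 of them (21.9%, against 9.56% of all regions): 7 in coding sequence, 5 in introns and 2 in the downstream class, and 0 in a 3′ UTR. The longest match in a region was an 8mer in 5, a 7mer-m8 in 4, a 7mer-A1 in 2 and a 6mer in 3, in order from the longest pairing to the shortest. Ces1d held 4 such regions, Ces1c and Ces1f 3 each, Ces3a and Ces3b 2 each, and Ces2a and Ces2e none. Ces3a and Ces3b each held 1 further region with a match that the deposited names mark with "-B", a class that neither the labels nor the file define. Of the 64 regions, 6 had no match to any microRNA family in the table. The authors' annotation is kept here, although both downstream regions lie inside the RefSeq spans of their genes, at 93193294 to 93193363 in Ces1d (93166072 to 93197804) and at 93268194 to 93268263 in Ces1f (93256236 to 93279766). The only Ces1f region annotated as 3′ UTR starts 5490 bases from the RefSeq gene start. All other regions of Ces1f, its coding regions included, start farther on, from 5581 bases.

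Other microRNAs have matches in regions of the same genes. Their mature sequences are shown because the regions below are named by them (RefSeq, GRCm38.p6, the build that mm10 denotes); the capitals mark the seed, bases 2 to 8. miR-26a and miR-26b share 1 seed and match the 3′ UTRs of Ces3a and Ces3b, the members of the miR-29 family share another and match next to the miR-122 regions of Ces1d and Ces1f, let-7 matches the "-B" region of Ces3a, and miR-27 matches the 5′ UTR of Ces2a.
mmu-miR-26a-5p: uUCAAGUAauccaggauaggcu
mmu-miR-26b-5p: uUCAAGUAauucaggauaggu
mmu-miR-29a-3p: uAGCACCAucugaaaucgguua
mmu-miR-29c-3p: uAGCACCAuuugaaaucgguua
mmu-let-7a-5p: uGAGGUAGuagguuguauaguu
mmu-miR-27a-3p: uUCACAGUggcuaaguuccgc

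Levels are given as CPM, a region's or gene's reads per 1000000 reads of its library over all regions. Libraries held 445912 to 1170130 counts in controls and 612479 to 1070610 in KO. Thus 3 reads over a whole group correspond to 0.713 CPM in controls and 0.807 CPM in KO. These floors cover counting error only, and each SD given below is taken over the libraries of a group. All 10 hepatocyte markers were detected in both groups. Their summed level was 24540 to 32455 CPM in controls and 10234 to 17122 CPM in KO, and 9 of the 10 fell while 1 rose. The 10 neuron markers summed to 38.9 to 54.7 CPM in controls, with Gria2, Rbfox1, Stmn2 and Syn1 at 0 reads there, and to 1876 to 7806 CPM in KO, highest in KO replicate 4 at 3.66 times the mean of KO replicates 1 to 3. The 7 stellate and matrix markers summed to 581 to 703 CPM in controls and 1058 to 1865 CPM in KO. The part of these shifts in the results below was not tested, and in bulk tissue fewer cells of a type and less RNA per cell cannot be told apart. RNA levels of the same livers were not analysed here, so less transcript and less AGO binding per transcript cannot be told apart either.

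AGO-bound reads on the 7 genes together were 3175, 2198, 3177, 4039 and 3377 CPM in controls 1 to 5 and 885, 1177, 1085 and 585 CPM in KO 1 to 4. Every KO library lay below every control. As a share of all reads this was 0.319% ± 0.0660 (SD) over the 5 controls and 0.0933% ± 0.0262 over the 4 KO libraries, a 3.42-fold difference. The share of these reads that fell in regions with a miR-122 match was 47.3% ± 5.54 in controls and 4.48% ± 2.17 in KO, where over all regions of the table it was 19.5% ± 1.09 and 3.55% ± 0.382. KO replicate 4 held 0.557 times the mean of KO replicates 1 to 3 on these genes.

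Gene sums were tested with edgeR's quasi-likelihood test over all genes of the table, with sex as a term. The sums of Ces3a, Ces3b, Ces1c, Ces1d, Ces1f and Ces2a fell, that of Ces2e did not pass, and none rose. That is 6 of 7 lower, where 23.8% of all 8843 genes tested were lower. Every KO library lay below every control for Ces1d and Ces1f alone, 2 of 7, against 18.3% of all genes tested. The median log2 fold change of the 7 was -1.72, beside 0.05 for all genes tested.

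Ces1d, a triacylglycerol hydrolase of hepatocytes, had 559.6, 729, 498, 501 and 359.8 CPM in controls 1 to 5 and 61.6, 45.8, 32.7 and 4.90 CPM in KO 1 to 4. Its groups were far apart, with KO replicate 4 the lowest, at 0.105 times the mean of KO replicates 1 to 3. The log2 fold change, KO over control, was -3.77 (SE 0.35, adjusted p = 6.17e-06), from 529 ± 133 to 36.2 ± 24.0 CPM (SD, n = 5 and 4). Ces1f, whose RefSeq synonym is TGH-2 after the same activity, had 689, 525, 602, 881 and 438 CPM in controls and 106, 110.1, 69.1 and 49.0 CPM in KO. Its groups did not overlap either, and its fold change was -2.98 (SE 0.26, adjusted p = 4.22e-06). Ces1c, the esterase secreted into plasma, had 266, 235, 272, 184 and 188 CPM in controls and 199, 168, 154 and 81.6 CPM in KO. The 2 male controls lay below KO replicate 1, and the change was small at -0.56 (SE 0.17, adjusted p = 0.0190). The Ces1c call was lost without control replicate 5 (-0.50, adjusted p = 0.0613) and without KO replicate 1 (-0.56, adjusted p = 0.0712), and with library totals in place of TMM factors (-0.42, adjusted p = 0.129). Over 21 alternative fits it held in 15, was lost in 5 and changed sign in 1.

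Ces3a, a liver carboxylesterase of the third subfamily, had 1346, 589.8, 1468, 1901 and 1814 CPM in controls and 416, 729.9, 679 and 379 CPM in KO. Control 2, the shallowest library, lay within the KO range, and the other controls lay above it. The fold change was -1.69 (SE 0.26, adjusted p = 2.60e-04). Its neighbour Ces3b had 257, 98.7, 281, 492 and 526 CPM in controls and 70.5, 81.9, 115 and 52.2 CPM in KO. Here too control 2 alone lay within the KO range, and the fold change was -2.36 (SE 0.31, adjusted p = 7.26e-05). Ces2a, which hydrolyses acylglycerols and drugs, had 36.6, 13.5, 39.6, 61.5 and 38.9 CPM in controls and 12.9, 18.5, 15.9 and 8.16 CPM in KO (-1.72, SE 0.34, adjusted p = 0.00129). Ces2e, of the same subfamily, had 21.1, 6.73, 16.7, 18.8 and 13.4 CPM in controls and 18.9, 23.4, 19.6 and 9.80 CPM in KO. Its groups overlapped over most of their range, and the fold change was 0.07 (SE 0.35, adjusted p = 0.886).

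**Figure D1:**
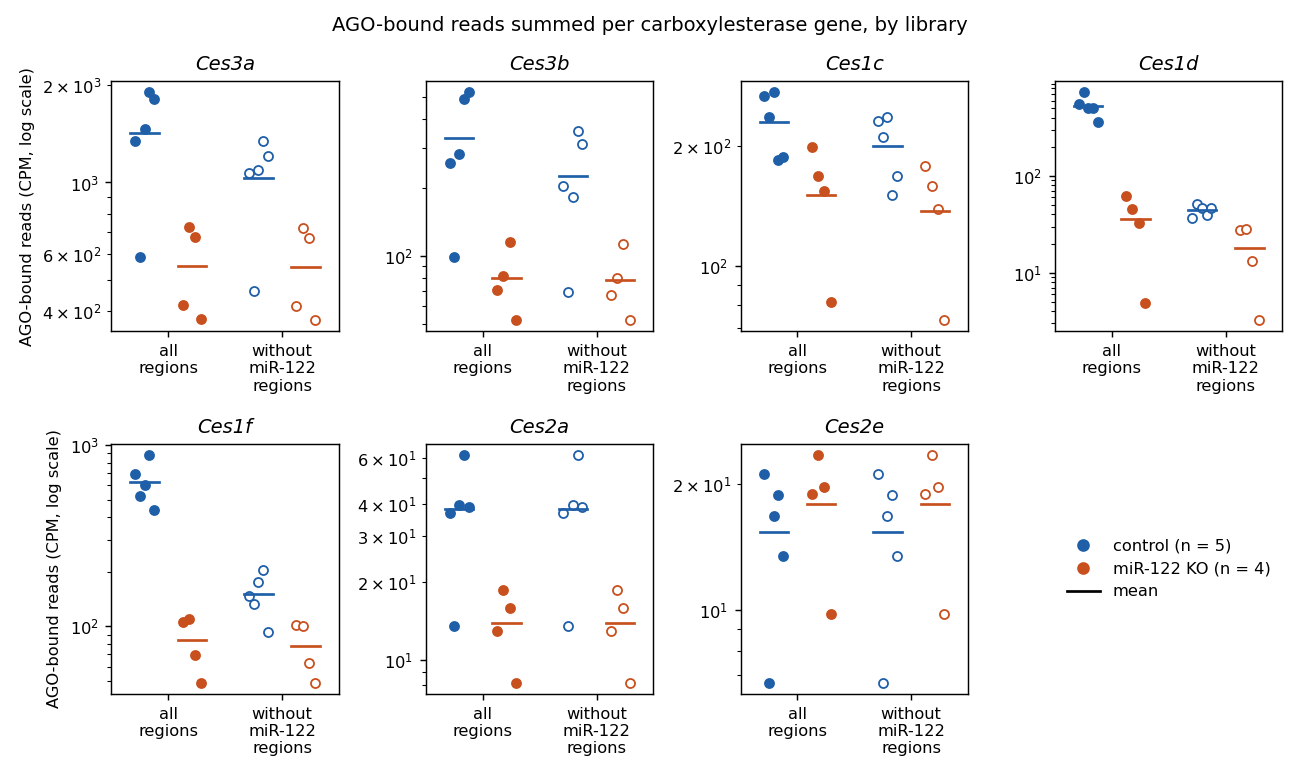
AGO-bound reads per gene in CPM (log scale, each panel with its own range), summed over all regions (filled) and over regions without a miR-122 match (open), with 1 point per library and the group mean as a line. Ces1d and Ces1f are the genes whose KO libraries all lie below all controls in the filled points, and for Ces2a and Ces2e both sets are the same because neither gene has a miR-122 region.

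The single regions show where on each transcript the reads were lower. Of the 64 regions 30 passed the low-count filter and were tested, 15 of them lower in KO and 0 higher, where 26.7% of the 17182 regions tested in the whole table were lower. The other 15 did not pass at an adjusted p of 0.05. Every KO library lay below every control in 13 of the 30, against 24.0% of all regions tested. The filter keeps a region with 9.94 CPM or more in at least 4 of the 9 libraries, whatever their group. Of the 30 regions 21 had at least 1 KO library under that limit, and for a region that passed through its control libraries alone the direction was partly set by the filter. The 34 regions that were not tested held 5 to 68 reads over the 9 libraries, with a median of 26.

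**Figure D2:**
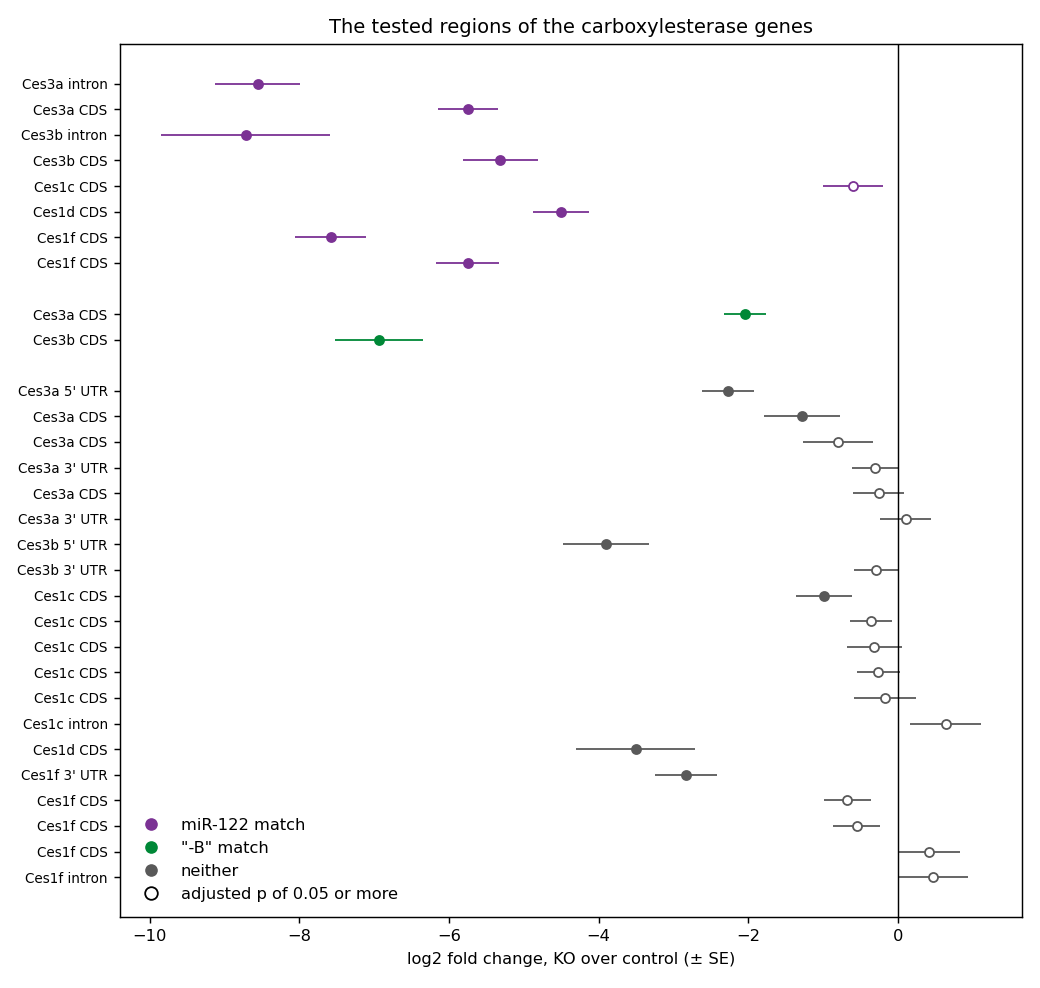
Log2 fold change of the 30 tested regions, KO over control, with the SE as a bar, for regions with a miR-122 match, with a "-B" match and with neither. Filled points have an adjusted p under 0.05; of the 8 regions with a miR-122 match, that of Ces1c is the 1 open point, and the open points of the lower block lie within 1 of 0 on the log2 scale.

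Of the 14 regions with a miR-122 match 8 were tested, and 7 of these fell, where 89.3% of such regions fell in the whole table. All 8 had at least 1 KO library under the filter limit, as did 2396 of the 2637 in the whole table. The caveat given above on the filter and the direction thus applies to both counts. In Ces3a a coding region with a 6mer (chromosome 8, 105049971 to 105050040) had 124, 76.2, 224, 259.8 and 273 CPM in controls and 1.99, 4.87, 6.54 and 3.27 CPM in KO. Every KO library lay below every control, and the means differed 45.9-fold (log2 -5.75, SE 0.40, adjusted p = 3.08e-08). An intronic region with an 8mer, on the same gene, kept 2 reads over the KO group against 905 over controls (log2 -8.56, SE 0.57, adjusted p = 2.65e-08).

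Ces3b carried the same pair at nearly the same distance from its start. Its coding region with a 6mer (105085047 to 105085116) had 38.1, 24.7, 72.1, 109 and 91.3 CPM in controls and 2.98, 1.95, 1.87 and 0 CPM in KO, a 39.5-fold difference (log2 -5.31, SE 0.50, adjusted p = 4.31e-07). Its intronic region with an 8mer (105085422 to 105085491) had 14.1, 4.49, 27.3, 27.3 and 122.2 CPM in controls and no read in any KO library. All KO libraries thus lay below all controls, with control 5 far above the other controls, and the mean of the controls was at least 48.4-fold higher than 3 reads over the KO group (fitted log2 -8.72, SE 1.13, adjusted p = 2.99e-05). Without control 5 this bound was 22.7-fold, and without control 1, 3, 4 or 5 the region missed the low-count filter and was not tested.

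A total of 5 pairs of tested regions in Ces3a and Ces3b had the same annotation, a match in common and nearly the same distance from the RefSeq gene start, and these pairs were picked after their values were seen. The 5′ UTR regions started 40 and 38 bases from the start, the coding 6mer regions 1395 and 1314, the intronic 8mer regions 1782 and 1689, the "-B" regions 4961 and 4867 and the 3′ UTR regions with a miR-26 match 9730 and 9718. In that order the log2 fold changes were -2.27, -5.75, -8.56, -2.04 and -0.31 in Ces3a, and -3.90, -5.31, -8.72, -6.93 and -0.29 in Ces3b. The first 4 pairs fell in both genes and the 3′ UTR pair passed in neither. Both genes lie near each other and resemble each other, and how reads that fit both were counted is not stated in these sources.

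**Figure D3:**
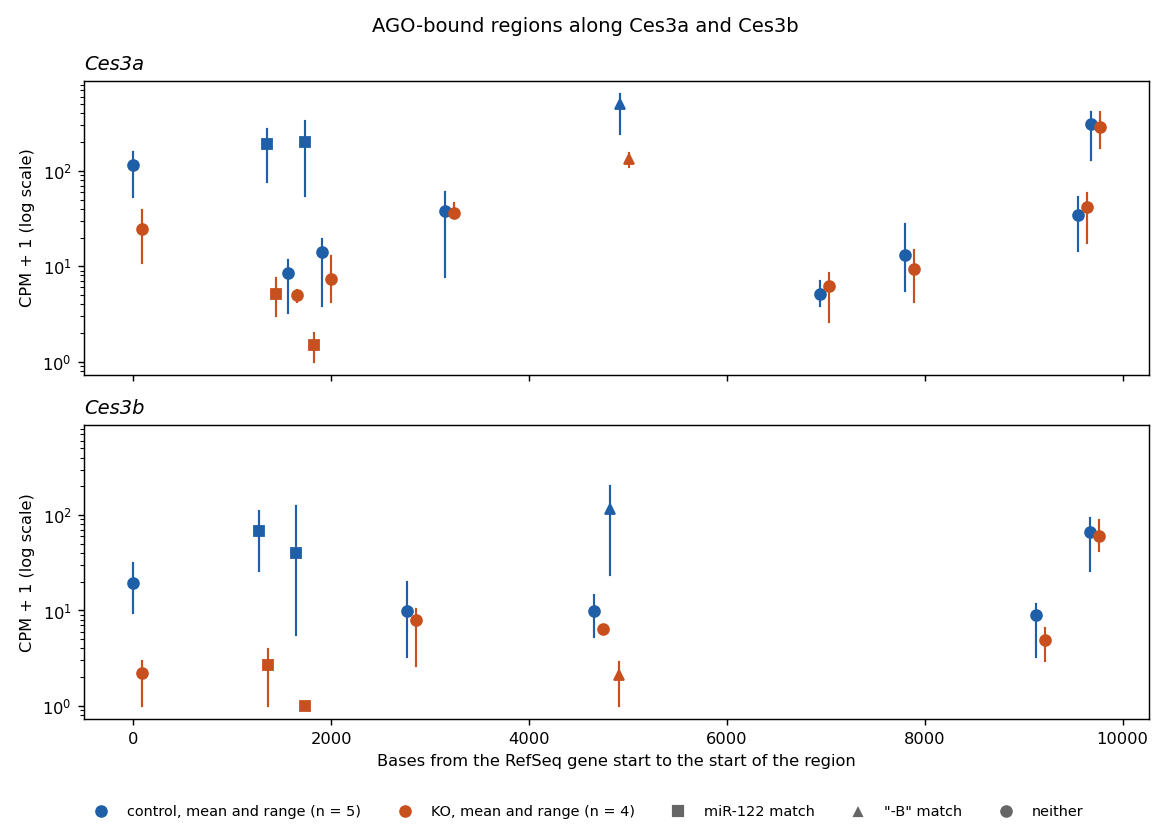
Level of each region of Ces3a and Ces3b against the distance from the RefSeq gene start, as CPM + 1 on a log scale, with the mean as a symbol and the range over libraries as a line; control and KO symbols are set slightly apart. Squares mark a miR-122 match and triangles a "-B" match; the control and KO symbols have ranges that do not meet at the marked regions and at the 5′ UTR region on the far left of each gene, and ranges that overlap at every other region.

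The "-B" regions took a large part of the reads of both genes, 36.5% ± 4.03 of Ces3a's and 33.0% ± 7.76 of Ces3b's in controls. That of Ces3b (105088600 to 105088732) had 104, 22.4, 80.9, 199.98 and 169 CPM in controls and 0.994, 0, 1.87 and 1.63 CPM in KO, 103-fold lower (log2 -6.93, SE 0.58, adjusted p = 1.40e-07). It was left with 4 reads over the KO group. That of Ces3a (105053537 to 105053671), which also has a let-7 7mer-m8 match, had 553, 240.0, 506, 632 and 599 CPM in controls and 109, 153, 137 and 134 CPM in KO. Its KO libraries all lay below the controls but stayed well above the floor, 3.79-fold lower in the means (log2 -2.04, SE 0.28, adjusted p = 1.95e-05). Whether the 2 genes differ in this fall was not tested. Over all regions, 535 of 630 tested regions with a "-B" match and no miR-122 match fell. At least 1 KO library was under the filter limit in 549 of the 630, and the Ces3b region passed through its control libraries alone. In further carboxylesterase genes, named after their values were seen, the "-B" region of Ces2g fell (log2 -2.81, adjusted p = 0.00118). The coding "-B" region of Ces1g did not pass (0.27, adjusted p = 0.646).

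In the Ces1 subfamily 1 coding region carried most of the AGO-bound reads of Ces1d. That region, with a miR-122 7mer-m8 and a miR-26 6mer (93192765 to 93192834), had 513, 659, 442, 445 and 306 CPM in controls and 31.8, 16.6, 19.6 and 1.63 CPM in KO, 27.2-fold lower (log2 -4.50, SE 0.37, adjusted p = 1.27e-07). It made up 89.2% of the gene's pooled control reads and 48.3% of its pooled KO reads. In Ces1f 2 coding regions did so. The first, with a miR-122 6mer beside matches to miR-130 and miR-19 (93263316 to 93263385), had 226, 177, 206, 295 and 176 CPM in controls and 0, 2.92, 0.934 and 0 CPM in KO. Its KO level rests on 4 reads (log2 -7.58, SE 0.47, adjusted p = 2.23e-08). The other, with a 7mer-m8 (93274116 to 93274185), had 311, 215, 217, 376 and 168 CPM in controls and 4.97, 6.82, 5.60 and 0 CPM in KO, 59.2-fold lower (log2 -5.75, SE 0.42, adjusted p = 4.58e-08).

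Ces1c held the 1 region of the 8 tested miR-122 regions that was not called. Its coding region with a miR-122 8mer (93108366 to 93108488) had 26.8, 6.73, 24.6, 27.3 and 16.1 CPM in controls and 19.9, 8.77, 14.9 and 8.16 CPM in KO. The groups overlapped and the fold change of -0.60 (SE 0.40) did not pass (adjusted p = 0.241), with adjusted p from 0.0774 to 0.910 over the 20 alternatives. Over all regions, 242 of 2637 tested regions with a miR-122 match were called in neither direction. The gene's 2 intronic miR-122 regions were too shallow to test, and are given after their values were seen. They held 1.41 to 13.5 CPM and 1.34 to 7.05 CPM in controls, and 1 and 0 reads over the KO group.

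The share of a gene's own reads in its miR-122 regions does not depend on the scaling of libraries. It went from 91.2% ± 2.62 in controls to 46.6% ± 12.8 in KO for Ces1d, and from 75.9% ± 3.35 to 5.75% ± 4.38 for Ces1f. In Ces3b it went from 30.7% ± 7.68 to 2.06% ± 1.75, and in Ces3a from 26.2% ± 5.31 to 0.836% ± 0.104. In these 4 genes every KO library lay below every control. How often this holds over all genes with a miR-122 region is not given here, so it is not shown to be particular to these genes. In Ces1c it was 13.1% ± 3.08 in controls and 8.86% ± 2.44 in KO, with KO replicate 1 just above the lowest control and the other KO libraries below it.

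**Figure D4:**
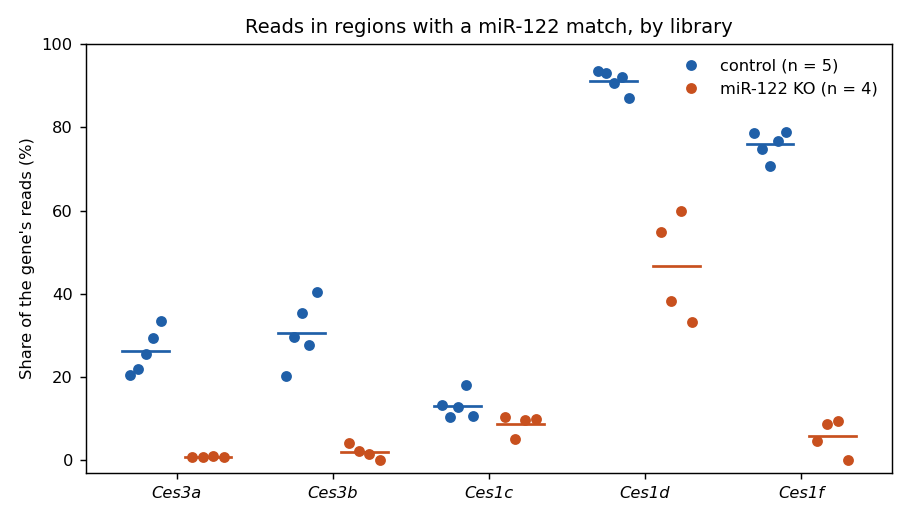
Share of each gene's AGO-bound reads that lay in regions with a miR-122 match, in percent, with 1 point per library and the group mean as a line. The KO points lie below the control points for Ces3a, Ces3b, Ces1d and Ces1f and meet them for Ces1c.

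Regions without a miR-122 match fell in some places and not in others. Of 50 such regions 22 were tested and 8 fell, beside 15.3% of such regions in the whole table; the 8 include both "-B" regions. Of the 20 tested regions with neither kind of match, 6 fell, 0 rose and 14 did not pass. Of these 20, 5 lie within 100 bases of a miR-122 region of the table and 3 of the 5 fell, while 3 of the 15 farther ones fell. In the whole table the shares were 28.1% of 405 and 11.7% of 13510. At least 1 KO library was under the filter limit in 4 of the 5 and 8 of the 15. In the whole table this held for 229 of the 405 and 5587 of the 13510. The near region of Ces1d passed through its control libraries alone. The caveat on the filter and the direction thus applies to this contrast too.

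The neighbours that fell in Ces1d and Ces1f both hold a miR-29 6mer, and that of Ces1f also holds a miR-22 7mer-A1. In Ces1d the coding region 22 bases from the miR-122 region (93192857 to 93192926) had 8.46, 22.4, 10.6, 12.0 and 21.5 CPM in controls and 0, 4.87, 0 and 0 CPM in KO (log2 -3.50, SE 0.79, adjusted p = 0.00162). Without KO replicate 2, the 1 KO library with reads, the value was -6.71 (adjusted p = 3.35e-04), and without control replicate 2, 3, 4 or 5 the region was not tested. In Ces1f the region 21 bases away, annotated as 3′ UTR (93274207 to 93274276), had 53.6, 44.9, 80.0, 83.8 and 26.8 CPM in controls and 6.96, 13.6, 5.60 and 4.90 CPM in KO (log2 -2.83, SE 0.41, adjusted p = 3.52e-05). No KO library reached a control in either. The third neighbour that fell, a coding region of Ces3a 97 bases from its intronic miR-122 region, was near the limit (log2 -1.27, SE 0.51, adjusted p = 0.0499), its groups overlapped, and it is named after its values were seen. The same arrangement was present in Ces1e, a liver carboxylesterase outside the 7, with a coding miR-122 8mer region at log2 -6.06 and a miR-29 6mer region 20 bases away at -2.23, both lower and both named after their values were seen. How reads that reach into both of 2 such close regions were counted is not stated in these sources. In Ces1c the region 17 bases from its miR-122 8mer, with a longer miR-29 match, did not pass (log2 -0.17, adjusted p = 0.761), and it too was picked after its values were seen.

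The 5′ UTR regions of Ces3a and Ces3b, 1285 and 1206 bases from the nearest miR-122 region, fell (adjusted p = 5.10e-05 and 3.54e-05). Both regions hold a miR-378a 6mer. That of Ces3a (105048616 to 105048685) had 117, 51.6, 137, 156 and 107 CPM in controls and 27.8, 38.0, 19.6 and 9.80 CPM in KO, and that of Ces3b (105083771 to 105083840) had 8.46, 13.5, 22.9, 30.8 and 17.5 CPM and 0.994, 1.95, 1.87 and 0 CPM. In neither gene did the groups overlap, and both regions were picked after their values were seen. Among all tested regions with neither kind of match and not within 100 bases of a miR-122 region, every KO library lay below every control in 1323 of 13510. The Ces3b region reached the filter limit in 4 control and 0 KO libraries, so its direction was partly set by the filter. In Ces1c a coding region without any match (93118348 to 93118417) had 57.8, 26.9, 66.8, 37.6 and 45.6 CPM in controls and 35.8, 28.3, 7.47 and 13.1 CPM in KO. Its groups overlapped and its fold change of -0.99 was near the limit (SE 0.38, adjusted p = 0.0426), with the call lost in 8 of 20 alternatives, among them those without control replicate 1, 3, 4 or 5 and without KO replicate 3 (adjusted p 0.0543 to 0.132).

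The 3′ UTR regions that hold a miR-26 match did not pass the test. That of Ces3a (105058306 to 105058375), which also has a miR-378a 7mer-m8 match, had 319.9, 128, 342, 414 and 329 CPM in controls and 188, 413, 385 and 173 CPM in KO. The libraries of both groups were mixed in order, and the fold change of -0.31 (SE 0.30) did not pass (adjusted p = 0.434). That of Ces3b (105093451 to 105093520) had 71.9, 24.7, 53.6, 91.4 and 83.2 CPM in controls and 49.7, 59.4, 88.7 and 40.8 CPM in KO, again with overlap (-0.29, SE 0.29, adjusted p = 0.440). These regions made up 21.7% of Ces3a's and 19.3% of Ces3b's pooled control reads but 53.2% and 74.5% of the pooled KO reads. A p above the threshold does not show that binding there was equal.

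Among the remaining tested regions of Ces1c, the coding region with a miR-130 7mer-A1 (93123165 to 93123234) had a fold change of -0.36 (adjusted p = 0.321) and that with a miR-143 6mer (93106587 to 93106709) of -0.26 (adjusted p = 0.489). The members' other tested regions without a miR-122 match that did not pass ran from -0.79 to 0.64, and the 2 tested intronic regions among them, with let-7 matches in Ces1c and Ces1f, had 0.64 and 0.48, named after their values were seen. None of the 30 tested regions rose, and for the 34 others no direction was tested.

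When the miR-122 regions were left out of the sums, the same 6 genes fell, 6 of 7 lower where 16.8% of all 8430 genes tested were lower. Ces1d was the only member in which every KO library stayed below every control, against 8.93% of all genes tested. The log2 fold change went from -3.77 to -1.53 (SE 0.38, adjusted p = 0.00791) in Ces1d and from -2.98 to -1.24 (SE 0.24, adjusted p = 0.00211) in Ces1f, where leaving out 7mer and 8mer regions alone gave -2.46. It went from -1.69 to -1.47 (SE 0.25, adjusted p = 9.14e-04) in Ces3a and from -2.36 to -2.08 (SE 0.29, adjusted p = 2.24e-04) in Ces3b. In Ces2a it was -1.97 (SE 0.33, adjusted p = 8.29e-04), and in Ces1c -0.73 (SE 0.17, adjusted p = 0.00647). This call of Ces1c was lost without KO replicate 1 (-0.61, adjusted p = 0.0737) and in males alone (-0.72, adjusted p = 0.0884). In Ces2e it was -0.17 (SE 0.34, adjusted p = 0.735). Ces2a and Ces2e have the same reads in both sums, yet their values moved from -1.72 and 0.07 to -1.97 and -0.17. Each fit was scaled anew, so a difference between the fits is not the effect of the left-out regions alone. With the "-B" regions left out as well, Ces3a came to -0.98 (SE 0.27, adjusted p = 0.0179) and Ces3b to -1.10 (SE 0.24, adjusted p = 0.00430), and again 6 of the 7 were lower beside 14.6% of genes. The median over the 7 without miR-122 regions was -1.47, beside 0.04 for all genes tested.

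The hepatocyte markers moved in the same direction over the same kind of sum. Without their miR-122 regions they summed to 18741 to 24861 CPM in controls and 9976 to 16605 CPM in KO, and their median log2 fold change was -1.04. With libraries scaled to that sum in place of TMM factors, an alternative chosen after the data were seen that raised the median of all genes from 0.04 to 0.97, Ces3b (-1.14) and Ces2a (-1.05) remained lower, 2 of 7 beside 5.39% of genes. Ces3a (-0.54), Ces1d (-0.60) and Ces1f (-0.33) no longer passed, and Ces1c (0.21) and Ces2e (0.74) lay above 0 without passing. All 7 lay below the shifted median. As a percentage of the hepatocyte sum, the 7 genes without their miR-122 regions were at 3.80 to 11.6% in controls and 4.94 to 8.37% in KO, and these ranges overlapped.

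**Figure D5:**
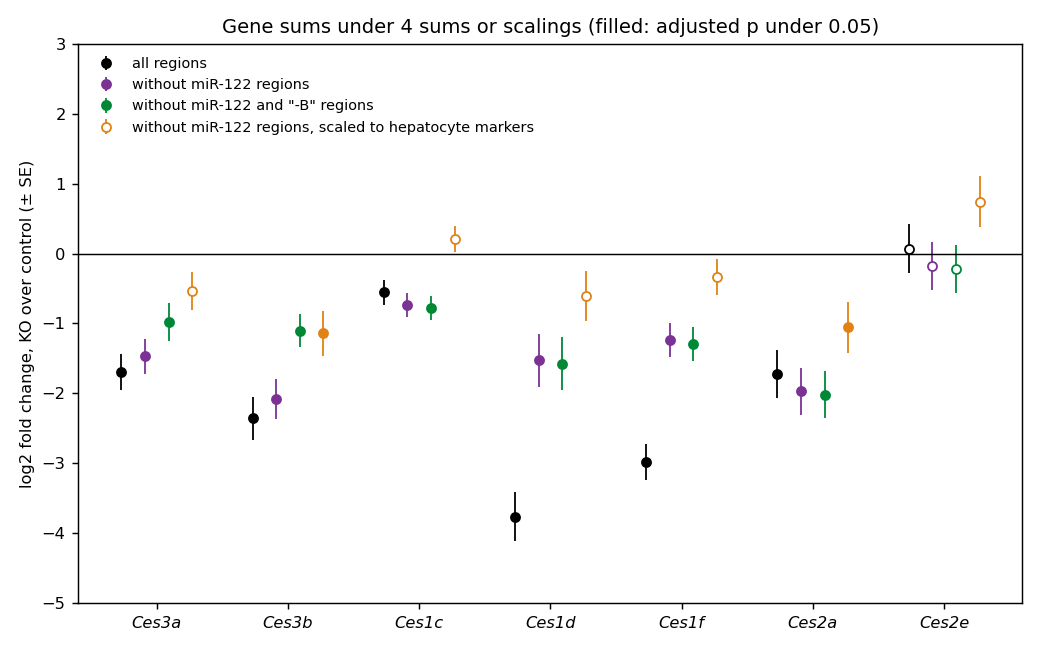
Log2 fold change of each gene's sum, KO over control, with the SE as a bar, for all regions, without miR-122 regions, without miR-122 and "-B" regions, and without miR-122 regions with libraries scaled to the hepatocyte markers. Ces1d and Ces1f go from -3.77 and -2.98 to -1.53 and -1.24 once miR-122 regions are left out, and under the hepatocyte scaling Ces3b and Ces2a are the filled points.

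Ces2a and Ces2e have no miR-122 region, and none of their 14 regions had enough reads to be tested alone. The 7 regions of Ces2a held 178 reads over controls and 54 over KO. One of them, in the 5′ UTR (104733993 to 104734062), is shown as an example of a site of another microRNA, chosen after its values were seen. It holds a miR-27 6mer, and the stretch around it (chr8:104734013-104734036, plus strand, RefSeq GRCm38.p6) reads, with the match in capitals:
Ces2a 5′ UTR: tgtttcctgCTGTGAcactctcat
The capitals are the complement of bases 2 to 7 of miR-27, at 104734022 to 104734027. This region held 5, 2, 6, 5 and 2 reads in controls and 0, 2, 2 and 0 in KO, 4.75 ± 1.59 and 0.954 ± 1.10 CPM. Each KO library was below each control in CPM, at a depth of 4 reads over the KO group. The 7 regions of Ces2e held 69 and 70 reads, spread over 5′ UTR, coding sequence and 3′ UTR, and no single region of it can be compared at this depth.

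Of 13 further carboxylesterase symbols listed, 7 were in the table and 4 gene sums were tested. Of these 3 were lower, where 23.8% of all genes tested were lower. Ces1e, whose product egasyn anchors beta-glucuronidase, fell to 14.9 ± 6.21 CPM from 478 ± 144 (SD over the 4 KO and the 5 controls, log2 -5.01), Ces1b fell from 64.0 ± 28.6 to 19.0 ± 3.98 CPM (-1.67) and Ces2g from 64.4 ± 18.5 to 12.0 ± 3.96 CPM (-2.49). Ces1g, which takes part in lipid metabolism of liver, had 127 ± 45.5 and 100.2 ± 7.24 CPM and did not pass (-0.14, adjusted p = 0.660). Without miR-122 regions the same 3 were lower, Ces1e at -2.39, where 16.8% of all genes tested were lower. Of 32 ester and glyceride hydrolases of liver outside the family, 29 were tested, with a median of -0.06. Of these 9 were lower, 4 higher and 16 in neither direction, where 23.8% of all genes tested were lower and 21.3% higher. Of the 4 with the highest level, the acylglycerol lipase Abhd2 rose from 116 ± 19.5 to 339.6 ± 65.5 CPM (log2 1.53) and the paraoxonase Pon1 fell from 247 ± 52.0 to 84.5 ± 42.0 CPM (-1.48). The arylacetamide deacetylase Aadac (-0.36, adjusted p = 0.161) and the lysosomal acid lipase Lipa (0.46, adjusted p = 0.0646) did not pass.

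The pattern of each member over the 9 libraries was set against every other tested gene by the root mean square difference of log2(CPM + 1), each gene centred on its own mean. The gene nearest to Ces3a was Ces2a (0.190), followed by Cdc23 (0.232) and Agxt2 (0.262), and Ces3a was in turn the nearest to Ces2a. Nearest to Ces3b were Prpf6 (0.366) and Ces3a (0.389), nearest to Ces1d Rpl35a-ps2 (0.391) and Tm6sf2 (0.422), nearest to Ces1f Slc25a34 (0.279) and Hspa4 (0.293), nearest to Ces1c Proser1 (0.143) and Ptbp1 (0.148), and nearest to Ces2e Ergic2 (0.175) and Reep3 (0.187). These distances include the difference between the groups and are a description.

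Sex was a term of each fit and passed for none of the 7 genes, with adjusted p from 0.410 for Ces3b to 0.983 for Ces2e, where it passed for 0.407% of all genes tested. The means were uneven all the same. Ces3b had 212 CPM in the 3 female and 509 CPM in the 2 male control libraries, and 70.5 CPM in the 1 female and 83.0 CPM as the mean of the 3 male KO libraries.

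The deposited conservation score of a match is the mean phyloP of its 6 core bases. Its median over the 14 miR-122 matches was 0.0787, beside 0.233 over the 8461 miR-122 matches of the table that have a score. A score of at least 1 was reached by 2 of the 14, the coding 7mer-m8 matches of Ces1d (1.32) and Ces1f (1.23), and by 26.5% of the 8461. The 14 lie in coding sequence, introns and the downstream class, while 24.6% of all miR-122 regions lie in 3′ UTRs. Whether the scores differ was not tested. In the authors' deposited table the log2 value, control over KO, was 8.58 for the intronic 8mer region of Ces3a, 7.91 for the coding 6mer region of Ces1f, 5.07 for the coding 7mer-m8 region of Ces1d and 1.23 for the coding 8mer region of Ces1c.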

How the data were processed

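AGO CLIP-seq of 9 livers (5 control, 4 KO; groups, numbers and sex per the labels) was deposited as read counts per region, not normalized, per the file headers. Bowtie2 and mm10 are named in the submitters' processing notes; the peak caller, the handling of duplicates and strand, and the counting of reads shared by near-identical genes are not stated in these sources. The authors' deposited log2 fold change is the authors' control over KO value, and the deposited score is phyloP, per the file headers. Of counts, 11.0% lay in regions without a gene and stayed out of gene sums.

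Counts of all regions or genes were fitted in edgeR 4.0.16 under R 4.3.3, after filterByExpr and with TMM scaling, by the quasi-likelihood functions glmQLFit and glmQLFTest; genotype and sex were terms, p was adjusted after Benjamini-Hochberg (0.05), and the SE was derived from the test statistic. By rule, named regions were all tested miR-122 regions and each member's 3 tested regions of highest level. Every other region with values, the 5′ UTR regions of Ces3a, Ces3b and Ces2a among them, was picked after its values were seen. DESeq2 1.42.0, other scalings, filters and left-out libraries were alternatives. No 2 replicates of a group were alike within counting noise. The fits were tested on simulated data. The members and lists were chosen with earlier results of these data known.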

Additional observations from a re-analysis of the deposited data

Results flagged for a closer look

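Among 65 groups of 4 or 5 libraries checked for a single library far from the others, 2 stood out by Dixon's criterion. Chance meets it in about 1 group in 20 for normally distributed values, a rate that does not hold for low counts with ties at 0. In the intronic miR-122 8mer region of Ces3b, control 5 had 122.2 CPM where the next highest control had 27.3 CPM; without that library the region had too few reads to be tested, and the other 4 controls still lay above the KO libraries, all at 0. In the coding region of Ces1d next to its miR-122 region, KO replicate 2 had 4.87 CPM, from 5 reads, where the other 3 KO libraries had 0. With those 3 tied, any read in KO replicate 2 would have met the criterion. Without KO replicate 2 the log2 fold change of this region went from -3.50 to -6.71.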

How the results depend on the processing

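Of the 64 regions, 15 were lower; without a filter on low counts 23 were, and with 1 library left out 10 to 15, the lowest without control replicate 3 or 4. Of the 7 gene sums 6 were lower, or 5 to 6 with 1 library left out, both with and without miR-122 regions. Over 3′ UTR regions alone 2 of 3 tested genes, Ces3b and Ces1f, were lower, where 1061 of all 5121 genes tested were lower. Ces3a did not pass there (-0.71, adjusted p = 0.0567). The Ces1f value rests on 1 region, 21 bases from a miR-122 region. That region lies nearer to the gene start than the coding regions of Ces1f, so its 3′ UTR label is uncertain. With libraries scaled to hepatocyte markers 2 of 7 were lower without miR-122 regions. Same-numbered samples showed no shared deviation from their group means (correlations -0.0903 to 0.0150), which cannot exclude a pairing by litter. With a replicate block 15 regions, 6 gene sums and 6 without miR-122 regions were lower. The 3′ UTR regions of Ces3a and Ces3b with a miR-26 match then turned to 0.010 and 0.119. Under the hepatocyte scaling these 2 turned to 0.240 and 0.265, the Ces1c coding regions with miR-143 and miR-130 matches to 0.297 and 0.205, and the Ces1c sum to 0.134 with and 0.209 without miR-122 regions, and Ces2e without them to 0.741. The sum of Ces2e turned to -0.023 with factors from regions without any miR-122 match, -0.0057 without control replicate 2 and -0.0013 without KO replicate 2 (-0.0057 to 0.17 over single left-out libraries); none of these passed. In males alone Ces1c (-0.61, adjusted p = 0.113) and, without miR-122 regions, Ces1c (-0.72, adjusted p = 0.0884) and Ces1d (-1.84, adjusted p = 0.0559) were lost. Of all called genes without miR-122 regions 50.5% were higher, 61.8% with factors from regions without a miR-122 match and 91.9% under the hepatocyte scaling; for all regions tested these shares were 42.9, 32.9 and 64.9%, and for gene sums over all regions 47.2 and 80.2% with the hepatocyte scaling. The causes were not tested. With 3 reads worth 2.56 to 6.73 CPM in a library, Ces2a and Ces2e regions were below what can be tested.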
